A study of Mus musculus with 32 samples.

Results

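The Egr genes encode zinc finger transcription factors, and Egr1, Egr2, Egr3 and Egr4 were followed in mouse hippocampal neurons before and after depolarization. The members were taken by gene symbol, and all 4 genes were found among the 55573 genes of the count table. In wild-type neurons all 4 mRNAs rose after KCl, in the soma by 6.26-fold (Egr3) to 103.7-fold (Egr2) and in neurites by 4.10-fold (Egr3) to 30.7-fold (Egr2). The ratio of neurite to soma level fell for Egr2 with KCl in wild-type neurons, from higher in neurites to lower. Such levels are shares of the RNA of each fraction, not amounts. This fall did not pass adjustment over all genes (edgeR unadjusted p = 8.74e-06, adjusted p = 0.203). The lower neurite level after KCl was not called either (edgeR adjusted p = 0.0715). In Mettl3 KO neurons both KCl libraries also lay above both Ctrl libraries for every member, but the replicates differed widely. The main edgeR fit called none of the 4 there, and the calls depended on the processing. With the replicate number as a block edgeR called Egr2 alone, while DESeq2, and edgeR without a count minimum, called all 4. Dropping that minimum took edgeR from 0 to 797 genes called in KO soma and from 0 to 780 in KO neurites. The reason for this rise was not resolved.

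EGR proteins bind a GC-rich DNA site through a block of zinc fingers, and the NAB corepressors bind EGR1, EGR2 and EGR3 to limit their activity. Their genes are immediate early genes: calcium entry and ERK signalling act on factors already present in the cell, SRF with its ELK partners at CArG boxes and CREB at cAMP response elements, so that transcription starts without new protein synthesis. In neurons EGR1 is a standard marker of recent activity and is needed for late-phase synaptic plasticity. EGR3 is also induced by synaptic activity, EGR2 is best known for hindbrain segmentation and Schwann cell myelination, and EGR4 is best known for its role in male germ cells.

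The RNA-seq part comprised 16 libraries in 8 groups of 2, from soma or neurites, WT or Mettl3 KO (Mettl3-/-), untreated (Ctrl) or KCl-treated cultures. METTL3 is the catalytic subunit of the enzyme that writes m6A, the most abundant internal modification of mRNA. WT cultures came from C57BL/6 mice and KO cultures from the Mettl3Flox/Flox strain, and both received AAV with Cre-P2A-dTomato at day 7 in vitro (50000 vg per cell), where the human synapsin promoter limits Cre to neurons, so Mettl3 stays intact in other cells and mouse line and genotype cannot be told apart. Hippocampi of 1 newborn litter were pooled, both sexes together, and the duplicates came from distinct litters with Ctrl and KCl cultures of the same litter. The p-values rest on the spread between libraries of a group, which differ in litter and insert, here 2 per group. The main fits treat libraries as independent although groups share litters and inserts, and only the change in neurite enrichment has a term per insert. All cultures, the Ctrl ones included, were silenced for 16 h with tetrodotoxin (1 µM) and the NMDA receptor blocker D-AP5 (50 µM), KCl was then added to 55 mM for 2 h where used, and RNA was taken at day 15. Cells grew on a porous membrane, with cell bodies and part of the neurites scraped from the top (soma) and only neurites that had passed the pores from the bottom.

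Assigned fragments ran from 33789183 to 71394235 per library. Both libraries of KO KCl insert 1 stood apart: their median correlation with the other libraries was 0.841 (soma) and 0.777 (neurites), and KO soma Ctrl replicate 2 had 0.858, against 0.923 to 0.957 elsewhere. In that insert the summed level of 10 neuronal markers was 2320.4 CPM (counts per 1000000 counts of a TMM-scaled library) in soma and 1352 in neurites, against 4140.5 to 7347 in the other 14 libraries. Sums were higher there for 11 astrocyte markers (10839 and 20728 against 1462 to 7444), 7 oligodendrocyte lineage markers (3608 and 7267 against 38.6 to 172), 7 microglial markers (236 and 173 against 10.4 to 34.7) and 12 fibroblast and vascular markers (665 and 1655 against 51.2 to 181). No list had a marker at 0 in any library. The 3 nuclear-retained RNAs, a check of the fractions, summed to 6095 to 6848.5 CPM in WT soma and 3883 to 4791 in WT neurites. In KO Ctrl they summed to 8549 and 3385 in soma and to 2315 and 5550 in neurites (replicates 1 and 2), so replicate 2 was higher in neurites. In KO KCl they summed to 12219.5 and 8323 in soma and 8448 and 6083 in neurites. Such RNAs were thus lower in most neurite libraries but not absent. Fewer cells of a type and less RNA per cell cannot be told apart in such bulk samples. Mettl3 itself had 9.05 to 16.7 CPM in WT and 3.91 to 11.0 CPM in KO libraries, with KO against WT log2 differences of -0.72, -1.19, -0.91 and -0.71 (soma Ctrl, neurites Ctrl, soma KCl, neurites KCl), none past the test (edgeR adjusted p 0.270 to 0.631). The gene-level count also takes reads from exons outside the floxed part.

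The stretch of 250 bases upstream of a transcription start is shown for Egr2 and Egr4, since the members moved together with KCl and CArG boxes and CRE cores are the sites through which such genes are known to be switched on. The sequences are RefSeq promoters of GRCm38.p6, read 5′ to 3′ on the gene's own strand and ending just before the start. Capitals mark the CArG box and the CRE core TGACG, which is also read as CGTCA where it lies on the other strand. The first is chr10:67537619-67537868 (+) and the second chr6:85513590-85513839 (-).
Egr2: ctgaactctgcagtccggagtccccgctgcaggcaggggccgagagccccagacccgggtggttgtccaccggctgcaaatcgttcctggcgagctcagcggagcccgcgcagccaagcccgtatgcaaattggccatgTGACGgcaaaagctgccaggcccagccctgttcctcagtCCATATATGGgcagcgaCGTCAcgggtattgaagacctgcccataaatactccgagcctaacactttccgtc
Egr4: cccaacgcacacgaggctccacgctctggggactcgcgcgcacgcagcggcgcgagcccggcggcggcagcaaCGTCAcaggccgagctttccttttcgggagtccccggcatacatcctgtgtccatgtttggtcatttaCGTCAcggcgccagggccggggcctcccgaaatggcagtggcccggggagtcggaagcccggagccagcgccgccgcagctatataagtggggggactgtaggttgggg

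RefSeq lists 5 starts for Egr2 and 1 for Egr4, and the Egr2 window was picked after its motifs were seen. The overlapping windows of the starts at 67537869, 67537870 and 67537930 hold the same CArG box and CRE cores, the window of the start at 67537566 has a CArG box and a GC box but no CRE core, and that of the start at 67535499 has 4 GC boxes and neither of the others. Counting the base just before the start as -1, the CArG box of this Egr2 window lay at -72 to -63, between CRE cores at -111 to -107 and at -55 to -51. The Egr4 window held CRE cores at -177 to -173 and at -109 to -105 and no match to a CArG box. Among 32851 promoter windows of the same length, 1.47% held a CArG box, 17.8% the CRE core TGACG, 1.55% the full element TGACGTCA (which contains the core), 4.7% the EGR site GCGNGGGCG and 32.7% the GC box GGGCGG, on either strand. None of the members' printed windows held the full element, the EGR site or the GC box. A match describes these letters and not a bound factor.

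Egr1 (ENSMUSG00000038418, chr18:34859823-34864984, mm10, plus strand), the classical activity marker of the family, had the highest level per kilobase of the 4 in every WT group. In WT soma it measured 43.1 and 35.9 CPM in the Ctrl libraries and 1109.5 and 1618 CPM in the KCl libraries. WT neurites had 34.3 and 34.9 CPM without and 882 and 1046 CPM with KCl. The lowest treated library was 25.7-fold above the highest untreated one in soma and 25.3-fold in neurites. The log2 change was 5.03 (SE 0.20, edgeR quasi-likelihood adjusted p = 1.16e-07) in soma and 4.83 (SE 0.20, adjusted p = 1.91e-07) in neurites, where a call needs a 2-fold change and an adjusted p of 0.05. Of all genes tested, 3.72% were called higher in WT soma and 3.35% in WT neurites.

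Egr2 (ENSMUSG00000037868, chr10:67535475-67542188, plus strand) was the least abundant member without KCl and had the largest log2 change of the family in both WT compartments. It measured 2.05 and 1.45 CPM in WT soma Ctrl and 205 and 182 CPM in WT soma KCl. The corresponding neurite values were 5.19 and 3.76 CPM, then 133 and 139 CPM. As a share of the RNA of each fraction, Egr2 was thus higher in neurites than in soma in Ctrl and lower in KCl. CPM do not give the amount of RNA in a compartment. The log2 change was 6.70 (SE 0.21, edgeR adjusted p = 1.92e-08) in soma, rank 13 of 24060 genes by size, and 4.94 (SE 0.19, adjusted p = 1.12e-07) in neurites, rank 34 of 22059.

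Egr3 (ENSMUSG00000033730, chr14:70077203-70082614, plus strand), another activity-induced member, had the smallest log2 change in both WT compartments. WT soma held 17.9 and 19.7 CPM in Ctrl and 107 and 141 CPM in KCl. WT neurites began higher, at 33.4 and 29.2 CPM, and reached 118 and 133 CPM. The log2 change was 2.65 (SE 0.16, edgeR adjusted p = 1.77e-06) in soma and 2.03 (SE 0.15, adjusted p = 1.31e-05) in neurites.

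Egr4 (ENSMUSG00000071341, chr6:85511121-85513589, minus strand) rose in both WT compartments with the widest error of the family. WT soma gave 11.6 and 8.39 CPM in Ctrl but 52.8 and 222 CPM in KCl. WT neurites were closer together, at 11.3 and 12.6 CPM in Ctrl and 317 and 262 CPM in KCl. The log2 change was 3.71 (SE 0.52, edgeR adjusted p = 0.00098) in soma and 4.63 (SE 0.54, adjusted p = 0.000369) in neurites. The soma value was 2.31 without WT soma KCl replicate 2 and 4.42 without replicate 1, called in both cases. With the spread shared by all 16 libraries, the log2 changes were close to these values but the calls of Egr3 and Egr4 were lost, at adjusted p = 0.0673 and 0.211 in soma and 0.240 and 0.137 in neurites.

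The plot of levels by library shows these values for the 8 groups. Both KCl libraries lay above both Ctrl libraries for 4 of 4 members in each of the 4 contexts. The same order was found in 33.8% of the genes tested in WT soma, 25.8% in WT neurites, 20.5% in KO soma and 19.6% in KO neurites.

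**Figure D1:**
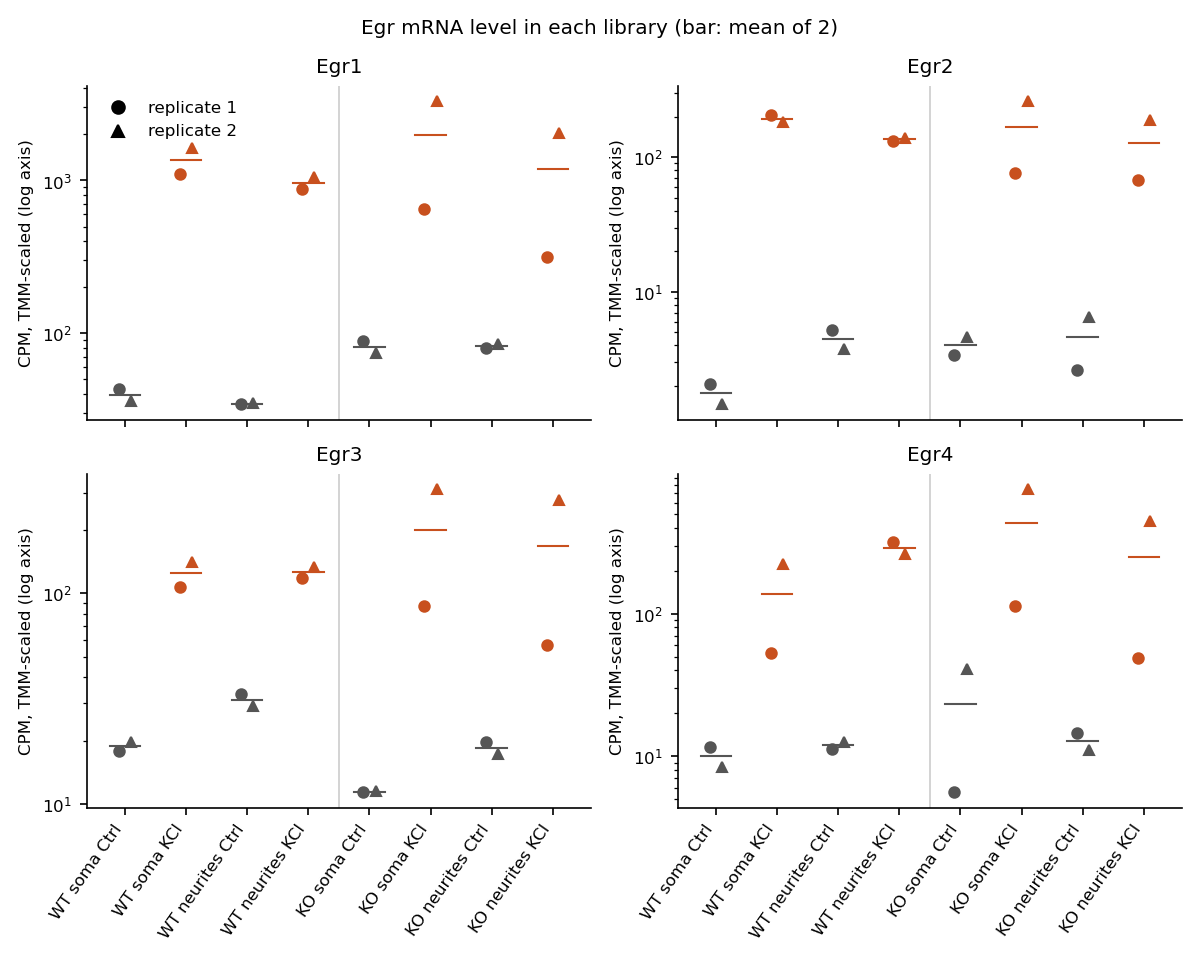
Level of each Egr mRNA in CPM with TMM scaling (log axis) in the 16 libraries, by genotype, compartment and treatment, with circles for replicate 1, triangles for replicate 2 and a bar for their mean. WT KCl replicates sit close together except for Egr4 in soma (52.8 and 222 CPM), whereas KO KCl replicates are far apart, as for Egr1 in soma (652 and 3299 CPM).

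In Mettl3 KO neurons the KCl libraries of insert 1 were lower than those of insert 2 for all 4 members in both compartments. Egr1 measured 88.7 and 75.0 CPM in KO soma Ctrl and 652 and 3299 CPM in KO soma KCl. Its neurite values were 80.4 and 85.5 CPM, then 318 and 2046 CPM. Insert 1, the lower one, is the insert with the high glial sums, and the part of that difference in these values was not tested.

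Egr2, the scarce member, measured 3.39 and 4.57 CPM in KO soma Ctrl and 76.7 and 262 CPM in KO soma KCl. KO neurites held 2.63 and 6.54 CPM, then 67.9 and 189 CPM. The lowest KCl value was still 10.4-fold above the highest Ctrl value in neurites and 16.8-fold in soma.

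For Egr3 KO soma gave 11.3 and 11.5 CPM in Ctrl and 87.4 and 312 CPM in KCl. KO neurites gave 19.8 and 17.3 CPM, then 56.7 and 277 CPM. As in WT, the Ctrl level was higher in neurites than in soma in both inserts.

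For Egr4 the untreated KO soma libraries already differed, with 5.54 and 40.6 CPM, and the treated ones had 113 and 750.0 CPM. KO neurites had 14.4 and 11.0 CPM, then 48.8 and 451 CPM. The lowest KCl library was 2.78-fold above the highest Ctrl library in soma and 3.39-fold in neurites, while libraries of the same number differed by 20.3- and 18.5-fold in soma and by 3.39- and 41.0-fold in neurites.

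The KO log2 changes in soma were 4.55 (SE 1.08) for Egr1, 5.35 (SE 0.88) for Egr2, 4.07 (SE 0.88) for Egr3 and 4.13 (SE 1.41) for Egr4, with unadjusted p from 0.000297 to 0.0191 by edgeR but adjusted p from 0.296 to 0.753. In KO neurites they were 3.76 (SE 1.04), 4.73 (SE 0.86), 3.09 (SE 0.84) and 4.22 (SE 1.42) in the same order, with unadjusted p from 0.000554 to 0.0178 by edgeR and adjusted p from 0.355 to 0.732. The biological coefficient of variation, the fitted spread between replicates, was 0.507 in KO and 0.152 in WT. edgeR called 0% of all genes in KO soma and 0% in KO neurites, where 1507 and 1355 genes passed the fold at an unadjusted p of 0.05, while DESeq2 called 265 and 245 genes. DESeq2 called all 4 members, at adjusted p from 4.24e-08 to 0.0373 in soma and from 5.43e-06 to 0.0339 in neurites. Without both libraries of KO KCl insert 1, which leaves 1 KCl library a compartment, assumed to vary like the other KO groups, edgeR called 20 of 22925 genes in soma and 12 of 21343 in neurites. Among them were Egr1 (log2 5.29, adjusted p = 0.0286) and Egr3 (log2 4.73, adjusted p = 0.0334) in soma and Egr1 (log2 4.63, adjusted p = 0.0384) in neurites. With the replicate number as a block, which stands for the shared litter if the numbers mark litters, edgeR called Egr2 in soma (log2 5.09, adjusted p = 0.043, 4 genes called in all) and in neurites (log2 4.69, adjusted p = 0.0491, 5 genes called in all).

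**Figure D2:**
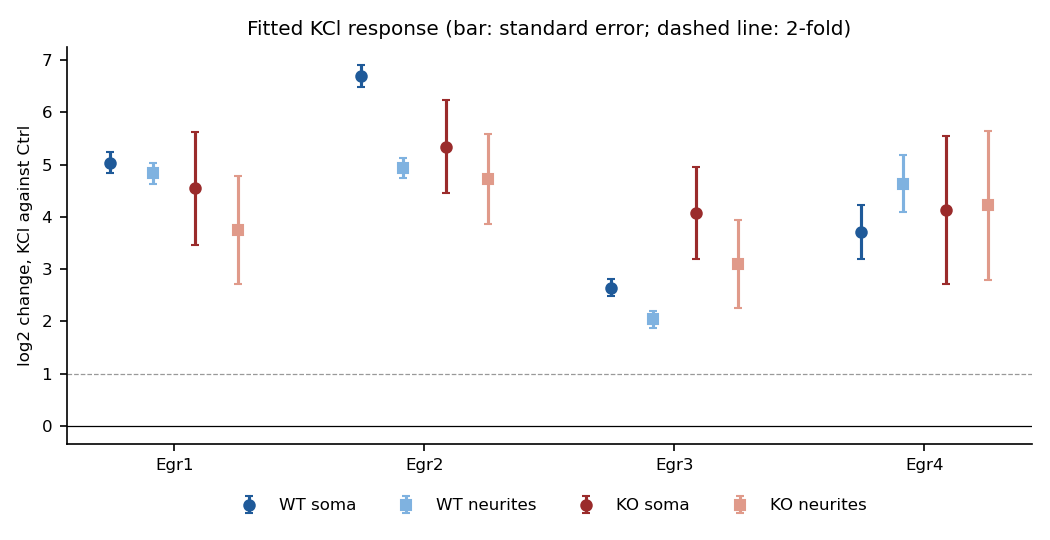
Log2 change of each Egr mRNA, KCl against Ctrl, in WT and Mettl3 KO soma (circles) and neurites (squares), with error bars of 1 standard error and a dashed line at the 2-fold threshold. All 16 estimates lie above the 2-fold line, and the KO bars (SE 0.84 to 1.42) are wider than the WT bars (SE 0.15 to 0.54).

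The difference between genotypes in the KCl response was then tested itself. In soma the KO minus WT differences in log2 change were -0.52 (SE 1.04) for Egr1, -1.38 (SE 0.83) for Egr2, 1.41 (SE 0.87) for Egr3 and 0.44 (SE 1.52) for Egr4. In neurites they were -0.97 (SE 1.04), -0.11 (SE 0.83), 1.16 (SE 0.87) and -0.30 (SE 1.52). No member passed (edgeR adjusted p 0.994 to 0.995 in soma and 0.868 to 0.983 in neurites). With these errors a difference of several fold is not excluded for any member. Of all genes, 0% were called in soma and 0% in neurites, with 484 and 921 past the fold at an unadjusted p of 0.05 and 2 and 0 called by DESeq2.

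Without KCl, Egr1 was higher in both KO than in both WT libraries in each compartment, 75.0 and 88.7 against 35.9 and 43.1 CPM in soma and 80.4 and 85.5 against 34.3 and 34.9 CPM in neurites. Egr3 was lower in both KO than in both WT libraries, 11.3 and 11.5 against 17.9 and 19.7 CPM in soma and 17.3 and 19.8 against 29.2 and 33.4 CPM in neurites. Egr2 was also higher in KO soma, at 3.39 and 4.57 against 2.05 and 1.45 CPM. Of all genes, 25% lay in both KO above both WT libraries in soma and 23.5% in neurites, and 23.5% lay below in soma and 25.8% in neurites. In the same soma libraries the astrocyte marker sum was 2941 and 2186 CPM in KO against 1462 and 1496 in WT, and the fibroblast and vascular sum 157 and 110.3 against 53.3 and 51.2, and their part was not tested. None of these members passed the test of KO against WT at 1.5-fold, nor did any member in any of the 4 contexts: the adjusted p ran from 0.617 to 0.798 in soma Ctrl, 0.827 to 0.998 in neurites Ctrl, 0.510 to 0.904 in soma KCl and 0.713 to 0.947 in neurites KCl (edgeR). The share of all genes called was 0.189%, 0.188%, 0.212% and 0.440% in that order. With the 4 neurite Ctrl libraries fitted alone, Egr1 passed as 1 of 136 genes among 21814, against 41 genes in the fit of all libraries.

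In WT Ctrl cultures Egr2 and Egr3 were called higher in neurites than in soma, Egr1 and Egr4 were not called. The neurite to soma ratio of Egr2 was 2.53 in insert 1 and 2.59 in insert 2, a log2 difference of 1.27 (SE 0.20, edgeR adjusted p = 0.00182). Egr3 had ratios of 1.86 and 1.48 (log2 0.65, SE 0.15, adjusted p = 0.0136). The log2 difference of Egr1 was -0.28 (SE 0.17, adjusted p = 0.288) and that of Egr4 was 0.17 (SE 0.49, adjusted p = 0.839). At the 1.5-fold threshold 9.22% of all genes were called higher in WT Ctrl neurites. Astrocyte marker sums were also higher there, at 3540 and 2353 CPM against 1462 and 1496 in soma. The fibroblast and vascular sums were 106.8 and 143.9 against 53.3 and 51.2, and the neuronal sums 6105 and 6962 against 4634 and 4868. The part of other cells in the values of Egr2 and Egr3 was not tested. Egr3 lost its call without WT soma Ctrl replicate 1 (adjusted p = 0.0856), WT neurite Ctrl replicate 1 (0.0763) or WT soma Ctrl replicate 2 (0.0562), and Egr2 and Egr3 both lost it when all 16 libraries shared the spread (adjusted p = 0.671 and 0.848).

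After KCl no member was called between WT neurites and soma, where 9.73% of all genes were called in either direction. Egr2 now had neurite to soma ratios of 0.648 and 0.768, below 1 in both inserts (log2 -0.48, SE 0.16, edgeR adjusted p = 0.0715). Egr1 had 0.795 and 0.646 (log2 -0.48, SE 0.17, adjusted p = 0.0917) and Egr3 1.102 and 0.942 (log2 0.04, SE 0.15, adjusted p = 0.898). Egr4 had 6.00 in insert 1 and 1.18 in insert 2 (log2 1.09, SE 0.47, adjusted p = 0.153), so its estimate rested on the low soma library of insert 1. Without WT soma KCl replicate 1 Egr1 was called lower (log2 -0.70, edgeR adjusted p = 0.00583), and without replicate 2 Egr4 was called higher (log2 2.49, adjusted p = 0.0001). In KO cultures no member was called either (adjusted p 0.920 to 0.999 in Ctrl and 1.000 in KCl), and edgeR called 0% of all genes in Ctrl and 0% in KCl, with 1226 and 128 past the fold at an unadjusted p of 0.05 and 13 and 0 called by DESeq2.

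**Figure D3:**
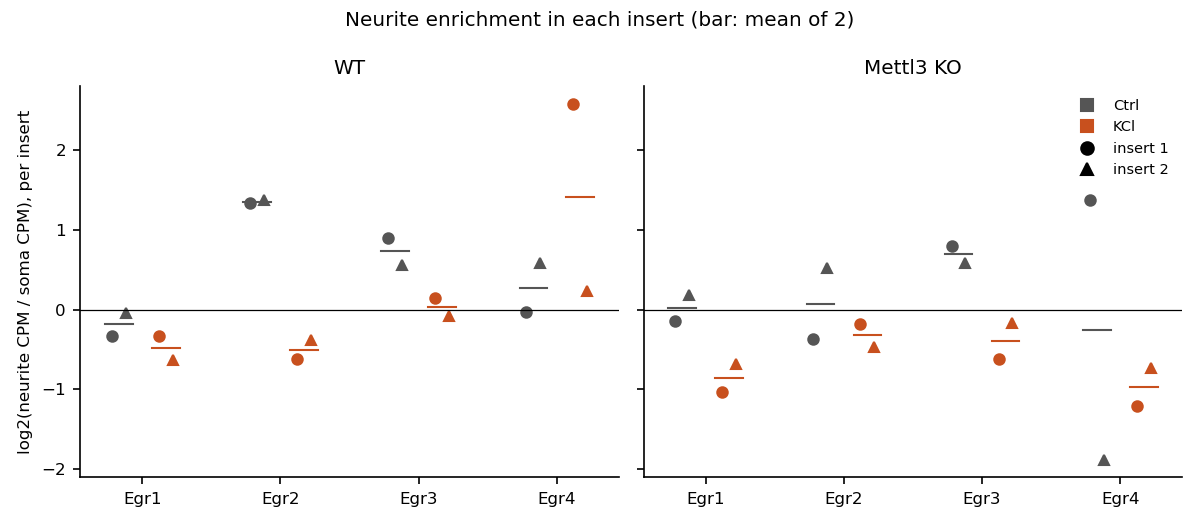
Log2 ratio of neurite to soma CPM of each Egr mRNA in each insert, WT on the left and Mettl3 KO on the right, Ctrl and KCl in separate colours, with circles for insert 1, triangles for insert 2 and a bar for their mean. In WT, Egr2 moves from 1.34 and 1.37 in Ctrl to -0.63 and -0.38 in KCl, while Egr4 in KCl is at 2.59 and 0.24.

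The change of this enrichment with KCl was tested within inserts, taking the soma and neurite libraries of the same replicate number as 1 insert and calling genes at 1.5-fold and an unadjusted p of 0.05, as the study did. In WT, Egr2 fell by 1.75 on the log2 scale (SE 0.19, edgeR unadjusted p = 8.74e-06, the smallest of 23200 genes, adjusted p = 0.203). Egr3 fell by 0.60 (SE 0.20, edgeR unadjusted p = 0.0149). The change was -0.18 for Egr1 (SE 0.20, edgeR unadjusted p = 0.391) and 1.25 for Egr4 (SE 0.65, edgeR unadjusted p = 0.0872). By this rule 1.35% of all genes were called lower, while at an adjusted p of 0.05 edgeR called 0 genes, against 779 at the unadjusted p in either direction and 498 by DESeq2 under the unadjusted rule. Of the 779 genes, 59.7% were higher, against 43.4% of the 790 called with the DESeq2 size factors. Egr3 lost the call without WT Ctrl insert 1 (log2 -0.42) or WT KCl insert 2 (log2 -0.46), and Egr4 gained it without WT Ctrl insert 2 (log2 1.55) or WT KCl insert 2 (log2 2.46).

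In KO the same change was -1.12 for Egr3 (SE 0.42, edgeR unadjusted p = 0.0315), whose ratios went from 1.74 and 1.5002 in Ctrl to 0.648 and 0.888 in KCl. Egr3 was the only member called, beside 1.99% of all genes called lower, with an adjusted p of 1. Without KO KCl insert 1 the change of Egr3 was -0.81 and without KO KCl insert 2 it was -1.41, both past the fold threshold but not called. The other members had changes of -0.91 (Egr1, SE 0.43), -0.43 (Egr2, SE 0.45) and -0.74 (Egr4, SE 1.04), at unadjusted p by edgeR of 0.0716, 0.368 and 0.501. Without KO Ctrl insert 1 Egr1 (-1.04) and Egr4 (0.92) also passed, and without KO Ctrl insert 2 Egr4 passed with the opposite sign (-2.43). Whether the change of Egr2 differed between the genotypes was not tested.

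Levels of different members are compared here as CPM per kilobase of exon, mean ± SD of 2 libraries. In WT soma Ctrl the order was Egr1 (8.81 ± 1.14), Egr4 (4.65 ± 1.05), Egr3 (4.28 ± 0.290) and Egr2 (0.515 ± 0.125), where Egr4 and Egr3 differed by less than their spread. In WT soma KCl it was Egr1 (304 ± 80.2), Egr4 (64.0 ± 55.7), Egr2 (56.9 ± 4.83) and Egr3 (28.2 ± 5.37), with Egr4 not separable from either neighbour below it. In WT neurites Ctrl Egr1 (7.71 ± 0.0873) and Egr3 (7.10 ± 0.661) were within the spread of Egr3, followed by Egr4 (5.56 ± 0.433) and Egr2 (1.32 ± 0.297). In WT neurites KCl the order was Egr1 (215 ± 25.9), Egr4 (135 ± 18.1), Egr2 (40.0 ± 1.38) and Egr3 (28.5 ± 2.31), each apart from the next.

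In KO the order in soma Ctrl was Egr1 (18.3 ± 2.16), Egr4 (10.7 ± 11.5), Egr3 (2.59 ± 0.0249) and Egr2 (1.17 ± 0.246) by their means, and in neurites Ctrl Egr1 (18.5 ± 0.804), Egr4 (5.91 ± 1.12), Egr3 (4.20 ± 0.406) and Egr2 (1.35 ± 0.814). In soma Ctrl replicate 2 Egr4 was above Egr1 (47.8% against 42.2% of the family sum), and in replicate 1 Egr4 and Egr3 were level (9.95% and 9.93%), so the place of Egr4 is not settled there. With KCl the KO means were 441 ± 417, 49.8 ± 38.5, 45.3 ± 36.0 and 201 ± 209.8 in soma and 264 ± 272, 37.8 ± 25.2, 37.8 ± 35.3 and 116 ± 132 in neurites for Egr1, Egr2, Egr3 and Egr4. These SDs reflect a shift of all members between inserts: within each of the 4 KO KCl libraries Egr1 was first, at 56.1% to 60.5% of the family sum, and Egr4 was second, at 17.95% to 28.3%. Egr2 and Egr3 changed places between the neurite libraries.

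The family summed to 19.7 and 16.8 CPM per kilobase in WT soma Ctrl and 357 and 549.7 in WT soma KCl, and to 22.0 and 21.4, then 410.1 and 426, in WT neurites. Egr1 made up 48.9% and 47.6% of it in WT soma Ctrl and 69.4% and 65.6% in WT soma KCl. The share of Egr3 went from 20.7% and 26.6% to 6.84% and 5.82%, and that of Egr2 from 3.07% and 2.54% to 16.9% and 9.72%. In WT neurites KCl, Egr4 held 36.0% and 28.6%, against 6.89% and 18.8% in WT soma KCl.

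**Figure D4:**
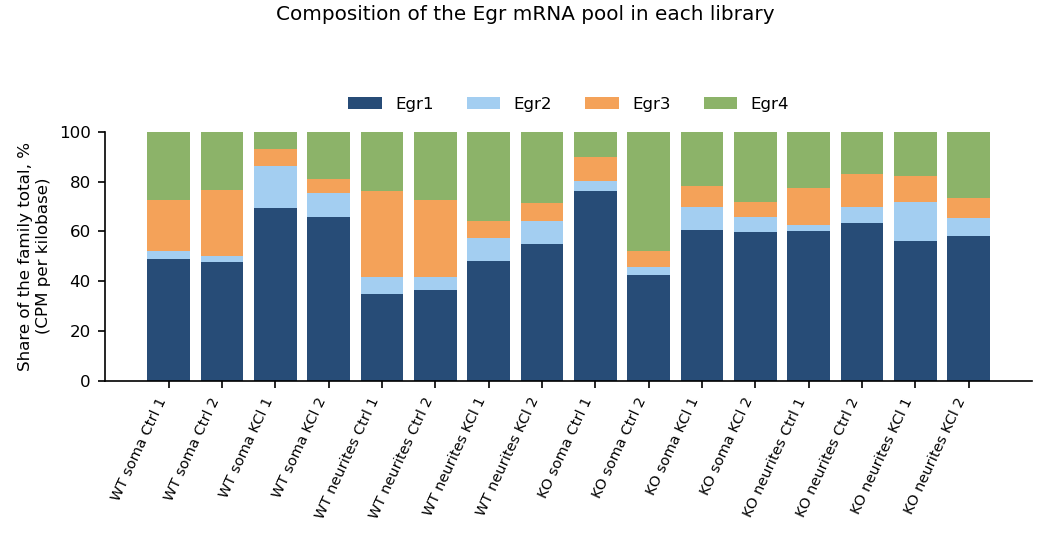
Share of each member in the summed Egr level (CPM per kilobase, in percent) in each of the 16 libraries, stacked to 100. Egr1 takes 47.6% to 69.4% in WT soma, and Egr3 shrinks from 20.7% or more in WT soma Ctrl to 6.84% or less in WT soma KCl.

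Replicates of Egr4 disagreed in more groups than those of the other members. Its replicate 1 was below replicate 2 by over 4-fold in 4 of the 8 groups, with log2 gaps of -2.07 in WT soma KCl, -2.87 in KO soma Ctrl, -2.73 in KO soma KCl and -3.21 in KO neurites KCl. The last 2 of these groups hold the deviating KO KCl insert 1, where Egr1 (-2.34 in soma and -2.68 in neurites) and Egr3 (-2.29 in neurites) had gaps over 4-fold too. Egr4 is the most GC-rich member, at 68.2% in its longest transcript against 57.3% (Egr1), 51.4% (Egr2) and 51.3% (Egr3). The 30 to 37 genes within 2 percentage points of that GC content had median gaps of the same sign as Egr4 in 8 of 8 groups, from -1.17 to 0.43. In the 4 groups named above for Egr4 these median gaps were smaller than its own. They were -0.07 in WT soma KCl, -0.82 in KO soma Ctrl, -0.47 in KO soma KCl and -1.17 in KO neurites KCl. The part of GC content in the Egr4 values was not tested. With an offset for the GC trend of each library the KCl change of Egr4 was 4.09 in WT soma and 4.86 in WT neurites on the log2 scale, still called.

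The genes most like each member were ranked by Pearson's r of log2(CPM + 1) over the 16 libraries among 15166 genes, given as a description since the points share libraries and treatment. For Egr1 they were Mir132 (r = 0.987), whose locus lies within the host RNA 1700016P03Rik (r = 0.986), and Csrnp1 (r = 0.986). For Egr2 they were Npas4, a neuron-specific activity-dependent transcription factor, Nr4a1, an orphan nuclear receptor, and Arc, a synaptic plasticity protein, each at r = 0.991. For Egr3 they were Dusp4, a MAP kinase phosphatase (r = 0.967), Fosl2, an AP-1 subunit (r = 0.966), and Gm6485 (r = 0.965). For Egr4 they were Ier2 (r = 0.955), Vps37b (r = 0.947) and Ndel1 (r = 0.944). The members' own r with each other ran from 0.907 (Egr2 with Egr4) to 0.970 (Egr1 with Egr2).

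The regulators upstream of the family moved less than its members. Of 10 genes for SRF, its partners and CREB, Srf (log2 1.56, edgeR adjusted p = 0.00772) and Crem (1.81, 8.41e-05), a CREB relative with repressor forms, were higher and Elk1 (-1.18, 0.0023), an SRF partner, was lower in WT soma. In WT neurites Srf (1.35) and Crem (1.30) were called higher and none lower. Of 10 genes of the ERK pathway only the kinase Braf passed, at log2 1.44 in soma and 1.37 in neurites. The list medians were -0.18 and -0.17 for SRF and CREB and -0.22 and -0.10 for ERK in soma and neurites, beside 0.01 in each compartment over all genes.

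Downstream, the corepressors Nab1 (log2 0.95, edgeR adjusted p = 0.00572, under the 2-fold threshold) and Nab2 (-0.11, adjusted p = 0.879) were not called in WT soma, nor in neurites (0.35 and -0.21). The WT soma KCl replicates of Nab2 disagreed, at 6.72 and 17.4 CPM against 12.2 and 12.7 CPM in Ctrl. In KO soma its log2 change was 1.92 (SE 0.69, edgeR adjusted p = 0.753). Of 12 genes reported as EGR targets, 11 were tested in soma, where Arc (log2 7.16), Dusp4 (2.82) and the sphingosine kinase Sphk1 (1.33) were higher and Cdk5r1 (-1.33), an activator of the kinase CDK5, was lower. In neurites 3 of 10 were higher, Arc (6.71), Dusp4 (2.21) and Sphk1 (1.40), and none was lower. The list medians were -0.11 and -0.24. The 5 Egr2-dependent myelin genes of Schwann cells that were tested, of 7, had 0 calls in either compartment (medians 0.25 and 0.11), and 2 of 3 zinc finger factors with an EGR-like site were tested with 0 calls (medians -0.16 and -0.03). In KO cultures 0 genes of any of these lists were called, as were 0 of all genes. The myelin list summed to 2608 and 5377 CPM in the soma and neurite libraries of KO KCl insert 1, against 66.4 to 129 in the other libraries. The oligodendrocyte lineage markers, which share Mbp with that list, summed to 3608 and 7267 CPM there, against 38.6 to 172. Egr2 was lower in that insert than in KO KCl insert 2, and any link to the myelin list was not tested.

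**Figure D5:**
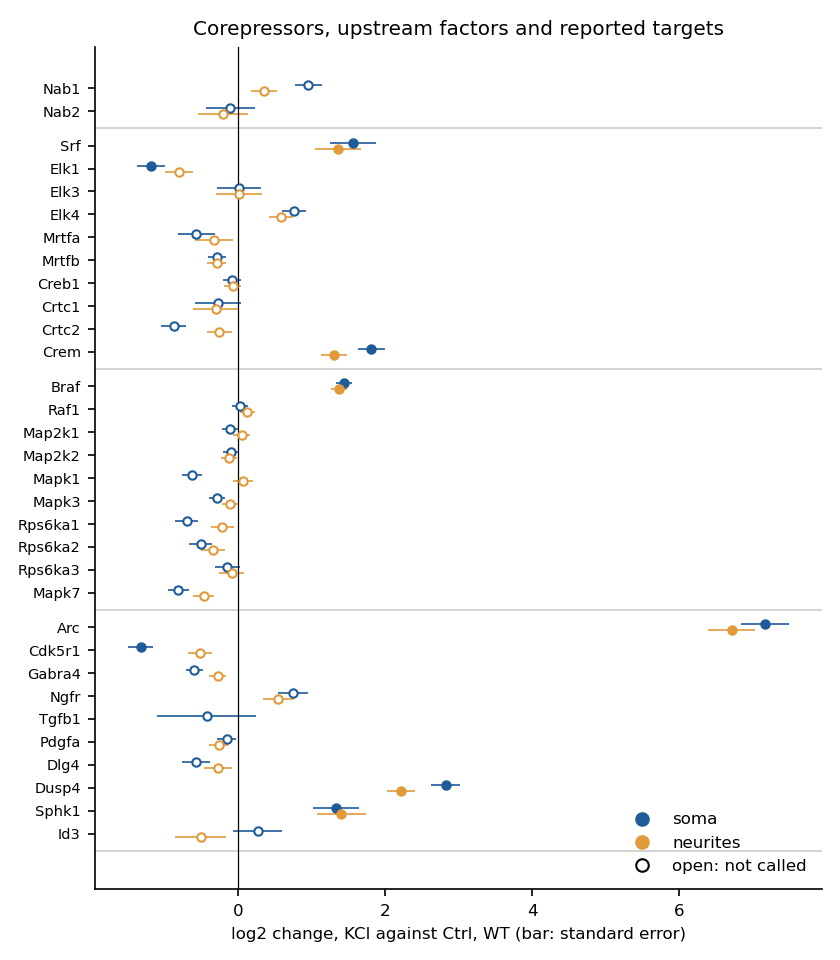
Log2 change, KCl against Ctrl, of the corepressors, upstream regulators and reported targets in WT soma and WT neurites, with bars of 1 standard error and open symbols for genes not called. Arc (7.16 in soma) and Dusp4 (2.82) lie to the right of Srf (1.56), Crem (1.81) and Braf (1.44), and the symbols of Nab1 and Nab2 are open.

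The m6A sites of the family come from DART-seq, in which a fusion of APOBEC1 to the m6A-binding YTH domain turns the C that follows a methylated A into U, so that the edited share of reads marks the site. The study called 18231 sites in 5643 RNAs, and 8 of them lay in members, all at an A followed by C after a purine (the RAC motif, which the calling required). Windows of 25 bases around the edited C of the sites in Egr2, Egr3 and Egr4 are shown because they are the places where the family's methylation was read, taken from the mm10 genome on the gene's strand, with the RAC in capitals.
Egr2 chr10:67540564: ggcccagcaaAACgccagtgcacga
Egr2 chr10:67540769: ctttgcctgtGACtattgtggccgc
Egr3 chr14:70079017: gttcgctttcGACtctccttccaac
Egr3 chr14:70079486: agcctgccccAACcgccgctcactc
Egr3 chr14:70080757: taggcctcagGACaggttgatcttt
Egr4 chr6:85512774: ggccctcttcAACctcatgtctggc
Egr4 chr6:85513293: gcctgctaggGACgctccctcggcc

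The edited share, averaged by the authors over WT libraries, was 3.21% and 3.93% at the Egr2 sites, both in the coding sequence, against a median of 3.54% over all sites. In Egr3 it was 4.86% and 0.910% at the coding sites and 5.74% at the last, which lies in the 3′ UTR of the longer coding transcript and outside the shorter. The coding sites of Egr4 had 1.44% and 0.779%, and the single coding site of Egr1 (chr18:34861762) had 1.22%. The highest shares were thus in Egr2 and Egr3, although an Egr3 coding site was among the lowest. Read depth behind these shares is unknown and there is no replicate error, so their differences carry no test.

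The authors' score of an RNA is the sum of its edited fractions. In WT it was 0.0123 for Egr1, 0.0728 for Egr2, 0.124 for Egr3 and 0.0227 for Egr4, against a median of 0.103 over RNAs, at percentiles 2.5, 36.9, 57.1 and 8.3. In KO it was 0.00607, 0.00839, 0.0489 and 0.00505 (median 0.0285), but sites were kept only where WT editing exceeded KO editing, so a lower KO score is no finding. The soma and neurite scores, each of which pools Ctrl and KCl libraries, were 0.00948 and 0.0171 for Egr1, 0.106 and 0.139 for Egr3 and 0.0230 and 0.0221 for Egr4. Egr2 had 0.118 in soma and was listed at 0 in neurites. The read depth behind that 0 is unknown, so it does not show that neurite Egr2 RNA was unmethylated.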

How the data were processed

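Per the labels and the study's methods, the authors trimmed reads with Flexbar, aligned them to mm10 with STAR 2.7.7a and counted fragments on exons with featureCounts 2.0.1 (Ensembl release 97, multi-mapping reads included, no strand option). The deposited values used here are raw counts per gene for 16 RNA-seq libraries. No gene of the table overlaps a member. The authors also deposited, for the DART-seq libraries, a score per RNA and an edited fraction per site, both averaged over libraries. Gene symbols came from the authors' neurite enrichment tables, whose own fold changes and p-values were not used.

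Counts were tested with edgeR 4.0.16 (TMM scaling, quasi-likelihood, two-sided, Benjamini-Hochberg over all genes tested) in R 4.3.3, keeping genes whose counts averaged 10 or more across the libraries of a comparison. The 37 mitochondrially encoded genes, all at 0, were left out. Comparisons within a genotype used its 8 libraries and those between genotypes all 16. The change in neurite enrichment had 1 term per insert and a neurite term per treatment. The test was also run on simulated counts of independent libraries with the same spread for all genes. That run had no litter or insert effects and no deviating library, so it does not cover them. The alternatives were DESeq2 1.42.0 and its size factors, no or a stricter count minimum (100), other sets of libraries, the replicate number as a block, each replicate left out, and levels without TMM.

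The members and lists were chosen with earlier results of these data known. Leaving out KO KCl insert 1 and the offset for the GC trend were added after seeing the data. The genes named are the 4 members, list genes called in a KCl comparison, the corepressors, the 3 genes most like each member (mean count of at least 100) and Mettl3. Depth was 33789183 to 71394235 fragments per library. Soma and neurite libraries of the same number were taken as 1 insert, as in the study. Promoters are from RefSeq (GRCm38.p6), which gave windows used here for Egr2 and Egr4, and transcripts from GENCODE M21.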

Additional observations from a re-analysis of the deposited data

Results flagged for a closer look

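Egr2 and Egr3 responded to KCl differently in neurites and in soma, by the test of that difference within inserts at an unadjusted p of 0.05. In WT the neurite response of Egr2 was lower than the soma response by a log2 difference of -1.75 (edgeR unadjusted p = 8.74e-06, adjusted p = 0.203). For Egr3 the difference was -0.60 in WT (edgeR unadjusted p = 0.0149) and -1.12 in KO (edgeR unadjusted p = 0.0315). By this rule 1.35% of all genes were called lower in WT and 1.99% in KO. None of these differences passed adjustment over all genes, and the cause was not tested.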

How the results depend on the processing

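In WT, KCl against Ctrl called 4 members in each compartment under the alternatives run except the fit of all 16 libraries, which called 2 in soma and 2 in neurites. In KO the count of 0 rose with all 16 libraries (3 in soma, 2 in neurites), DESeq2 (4 and 4), no count minimum (4 and 4) and without KO KCl insert 1 (2 and 1). It stayed 0 with each replicate left out. Neurites against soma in WT Ctrl called 2 members, 0 with all 16 libraries and 1 to 2 with a replicate left out. In WT KCl it called 0, but 1 without a count minimum (Egr4), 1 with the GC offset (Egr1) and 0 to 1 with a replicate left out. The change in neurite enrichment called 2 members in WT (1 to 3 with an insert left out) and 1 in KO (0 to 3), the latter 2 with all 16 libraries and 2 without a count minimum. KO against WT called 0, but 1 in neurites Ctrl from its own libraries alone (Egr1) and 1 in soma KCl without a count minimum (Egr4).

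Soma and neurite libraries of the same number deviated together in KO KCl (r = 0.902). They did not in KO Ctrl (0.068), WT Ctrl (-0.139) or WT KCl (0.001), and r within compartments ran from -0.088 to 0.183. The data thus show soma and neurites paired by number in KO KCl alone. Pairing of Ctrl with KCl libraries by number is not shown, although these cultures shared litters. With the replicate block Egr2 was called in KO soma (5.09, 1 member) and KO neurites (4.69, 1 member), and no other member's call changed. Without the insert term the KO change in enrichment called 0, and Egr4 reversed to 0.086.

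Some values changed sign. Without KO KCl insert 1 the KO minus WT difference was 0.26 for Egr1 in soma, and 0.41 for Egr2 and 0.49 for Egr4 in neurites. With the GC offset it was 0.12 for Egr4 in neurites, and neurites against soma in WT was -0.25 for Egr4 in Ctrl and -0.045 for Egr3 in KCl. With a replicate left out the difference ran from -2.13 to 0.23 (Egr1) and -1.51 to 2.50 (Egr4) in soma, and from -1.05 to 0.64 (Egr2), -0.41 to 1.89 (Egr3) and -2.67 to 0.54 (Egr4) in neurites. Egr3 in WT KCl neurites against soma ran from -0.12 to 0.26, and the KO change in enrichment of Egr4 from -2.43 to 0.92. The causes were not tested.

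Genes called in all were 1605 (339 to 2064 over the alternatives) in WT soma and 1125 (258 to 1800) in WT neurites for KCl, 0 (0 to 797) and 0 (0 to 780) in KO, and 0 (0 to 1446, the most without KO soma Ctrl replicate 1) and 0 (0 to 402) for the difference. For neurites against soma they were 3137 (0 to 3872) in WT Ctrl, 2240 (0 to 2820) in WT KCl, 0 (0 to 1084, the most without KO soma Ctrl replicate 1) in KO Ctrl and 0 (0 to 2) in KO KCl. For the change in enrichment they were 779 (291 to 1627, the most without WT Ctrl insert 1) in WT and 515 (61 to 3993, the most without KO Ctrl insert 1) in KO. For KO against WT they were 45 (0 to 2676, the most without KO soma Ctrl replicate 1), 41 (4 to 370), 51 (0 to 2175) and 99 (0 to 7260, the most without KO neurite KCl replicate 2) in soma Ctrl, neurites Ctrl, soma KCl and neurites KCl. The share of higher genes among those called was 72.6% for neurites against soma in WT KCl and 57.6% with the GC offset. Groups of 2 limit every test here.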

Other observations

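In WT the fold change with KCl was 103.7 for Egr2 in soma and 30.7 in neurites, while its treated level was lower in neurites (133 and 139 CPM) than in soma (205 and 182 CPM). Mir132, whose level was the most like that of Egr1, had 0.0373 to 0.585 CPM in the Ctrl libraries and 2.96 to 24.4 CPM in the KCl libraries. Npas4, the most like Egr2, had 4.72 to 15.3 CPM in Ctrl and 354 to 2148 CPM in KCl. Dusp4, the most like Egr3, had 7.16 to 19.0 and 29.6 to 199.9 CPM. Ier2, the most like Egr4, had 16.4 to 50.3 and 83.9 to 320.03 CPM.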
